A study of Mus musculus with 6 samples.

Results

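The genes described are the cadherins with a numbered symbol and the non-clustered protocadherins of the mouse. They were chosen by a rule on names, as the protein-coding genes whose GENCODE symbol is Cdh or Pcdh followed by a number, Pcdh11x included. The rule was set with earlier results of these data known, so the shares of members given below do not come from a blind choice. The epithelial Cdh1 and the endothelial Cdh5 were left out by the rule, and so were the clustered Pcdha, Pcdhb and Pcdhg genes. The rule found 33 genes among the 53801 gene rows of the files. By family they were 4 type I classical cadherins, 12 type II classical cadherins, 5 other cadherins, 4 delta-1 protocadherins, 5 delta-2 protocadherins and 3 other protocadherins. The name rule is therefore wider than classical cadherins, since the 5 other cadherins (Cdh13, Cdh16, Cdh17, Cdh23 and Cdh26) do not belong to the type I or type II families, and Pcdh12, Pcdh15 and Pcdh20 are not delta-protocadherins.

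Cadherins are calcium-dependent adhesion proteins of the cell membrane. The classical members bind a like molecule on the next cell and hold the actin skeleton through catenins, and the mix of classical cadherins on a cell helps to decide which cells it sorts with. Type II cadherins are typical of mesenchyme and of neurons. The delta-protocadherins adhere more weakly, do not use the catenin binding region, and act in neurite growth and cell movement, and delta-2 members can recruit the WAVE complex, which drives actin branching.

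RNA-seq was performed on maxillary prominences, the upper-jaw buds of the face, from embryos at E12.5, with 3 WT samples and 3 samples of wnt1cre; Rosa26Dlx2/- embryos (Dlx2OE). In Dlx2OE embryos a knock-in at Rosa26 (Rosa26CAG-LSL-Dlx2-3xFlag, made in C57BL/6J mice) drives Flag-tagged Dlx2 once Cre has removed a stop cassette. Because Cre is under the Wnt1 promoter, the transgene is active in the neural crest lineage, and the epithelium, vessels and muscle of the prominence are not its target. The methods name purchased C57BL/6J mice as WT, yet the RNA came from littermates and the strain of the Cre line is not given. The strain of the WT embryos is therefore not certain, and nothing in the sources used here says that they carried Cre. The labels name 7 littermates as the source of the RNA. The methods text gives a smaller number of littermates, and neither says whether a sample holds 1 embryo or several, so the p-values measure only the spread between these 6 samples. In bulk tissue, fewer cells of a type and less RNA per cell cannot be told apart.

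Between 26155500 and 31308813 counts fell on genes per sample. Levels are CPM, counts brought to a common library size by the TMM method, and they are divided by the exon length in kb where genes are compared with each other. The detection limit was set at 3 counts (0.0955 to 0.111 CPM across samples) and covers counting error only. Dlx2 had 42.9, 35.0 and 45.2 CPM in WT and 119, 131 and 123 CPM in Dlx2OE, 3.03-fold higher (edgeR's quasi-likelihood test, Benjamini-Hochberg adjusted p = 0.00241). Dlx2OE sample 3 stood apart in its share of reads that overlapped no annotated exon, 14.7% against 5.03% to 7.81% in the other 5 samples. WT sample 2 stood apart in Xist, the X-inactivation RNA, with 10.2 CPM against 1070 to 2356 CPM in the other 5.

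In WT maxillary prominences the cadherin RNA was dominated by Cdh11, the type II cadherin of mesenchyme also called OB-cadherin, and by the delta-2 protocadherin Pcdh18. Cdh11 had 71.8 ± 9.83 CPM per kb (SD, n = 3), above 96.8% of the genes tested, and Pcdh18 had 60.8 ± 12.5 CPM per kb. These neighbours in the order overlapped between samples. The next member, Cdh2 (N-cadherin), had 17.0 ± 3.22 CPM per kb, and its highest WT value, 20.2, lay below the lowest of Pcdh18, 51.9. Cdh3 (P-cadherin), typical of epithelium, followed at 16.3 ± 2.62, Cdh24 at 10.9 ± 0.387, Cdh6 (K-cadherin) at 8.05 ± 2.56, Pcdh7 at 5.79 ± 0.70 and Pcdh1 at 4.72 ± 0.79 CPM per kb.

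Below these 8 the levels ran from 3.83 ± 0.707 CPM per kb for Pcdh19 to 0.0622 ± 0.0223 for Cdh23, a cadherin of the hair-cell tip link. Of the 32 pairs of neighbours in the whole order, 6 did not overlap between WT samples. They were Pcdh18 and Cdh2, Cdh3 and Cdh24, Cdh24 and Cdh6, Pcdh10 and Pcdh20, Pcdh15 and Cdh23, and Cdh23 and Cdh16. Cdh16, the kidney cadherin, had 0 counts in all 6 samples, so its level was at most the 3-count limit in each. By family, type II cadherins held 43.4% of the members' summed level per kb in WT, delta-2 protocadherins 31.3%, type I cadherins 17.2%, delta-1 protocadherins 5.93%, other protocadherins 1.43% and other cadherins 0.737%.

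**Figure D1:**
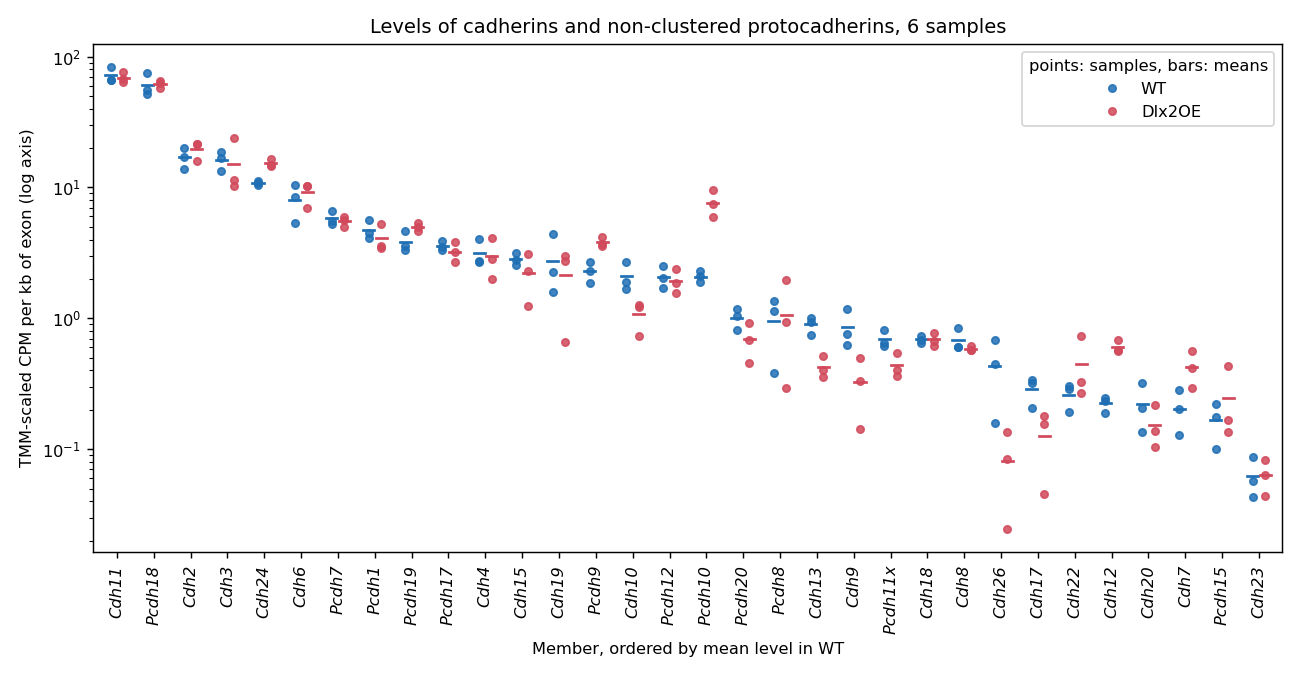
The plot gives the level of each member in TMM-scaled CPM per kb of exon on a log axis, ordered by the WT mean, with 1 point per sample for 3 WT and 3 Dlx2OE samples. Cdh11 and Pcdh18 lie highest in both genotypes, and the Dlx2OE points of Pcdh10 lie well above its WT points, at a mean of 7.65 against 2.08.

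Dlx2OE and WT were then compared to ask which of these adhesion genes differed when Dlx2 was raised in the neural crest. Most did not pass the test, and the summed level of all members per kb was 228 on average in WT and 236 in Dlx2OE. Pcdh10, Cdh12, Pcdh9 and Cdh24 were higher in Dlx2OE and Cdh13 was lower. Of the 33 members, 32 passed the filter on low counts and were tested, all but Cdh16. Of these 32, 4 were higher at an adjusted p under 0.05 (12.5%, against 2.99% of all 17514 genes tested) and 1 was lower (3.13%, against 3.46% of all genes). With a log2 fold change above 1 as well, Pcdh10 and Cdh12 were upregulated (6.25%, against 1.5%), and with one below -1, Cdh13 was downregulated (3.13%, against 1.62%). The median log2 fold change was -0.07 over the 32 members and 0.00 over all genes tested, with 13 members positive and 19 negative. The other 27 tested members did not pass, and 12 of the 32 (37.5%) had an unadjusted p under 0.05, against 29.5% of all genes.

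The 3 Dlx2OE values lay above the 3 WT values for 6 members (18.8%, against 16.7% of all genes), namely Pcdh10, Cdh12, Cdh7, Pcdh9, Cdh24 and Pcdh19. They lay below for another 6 (18.8%, against 17.3%), namely Cdh10, Cdh13, Cdh9, Pcdh11x, Cdh26 and Cdh17. These shares are close to the background. The genotypes overlapped for the other 20. For each of these 12 genes the exact permutation test (two-sided) gave p = 0.1, the smallest that 3 against 3 samples allow. Cdh26 and Cdh17 had few counts and passed the filter through their WT samples, since only 1 and 2 of their Dlx2OE samples reached its minimum of 0.328 CPM.

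**Figure D2:**
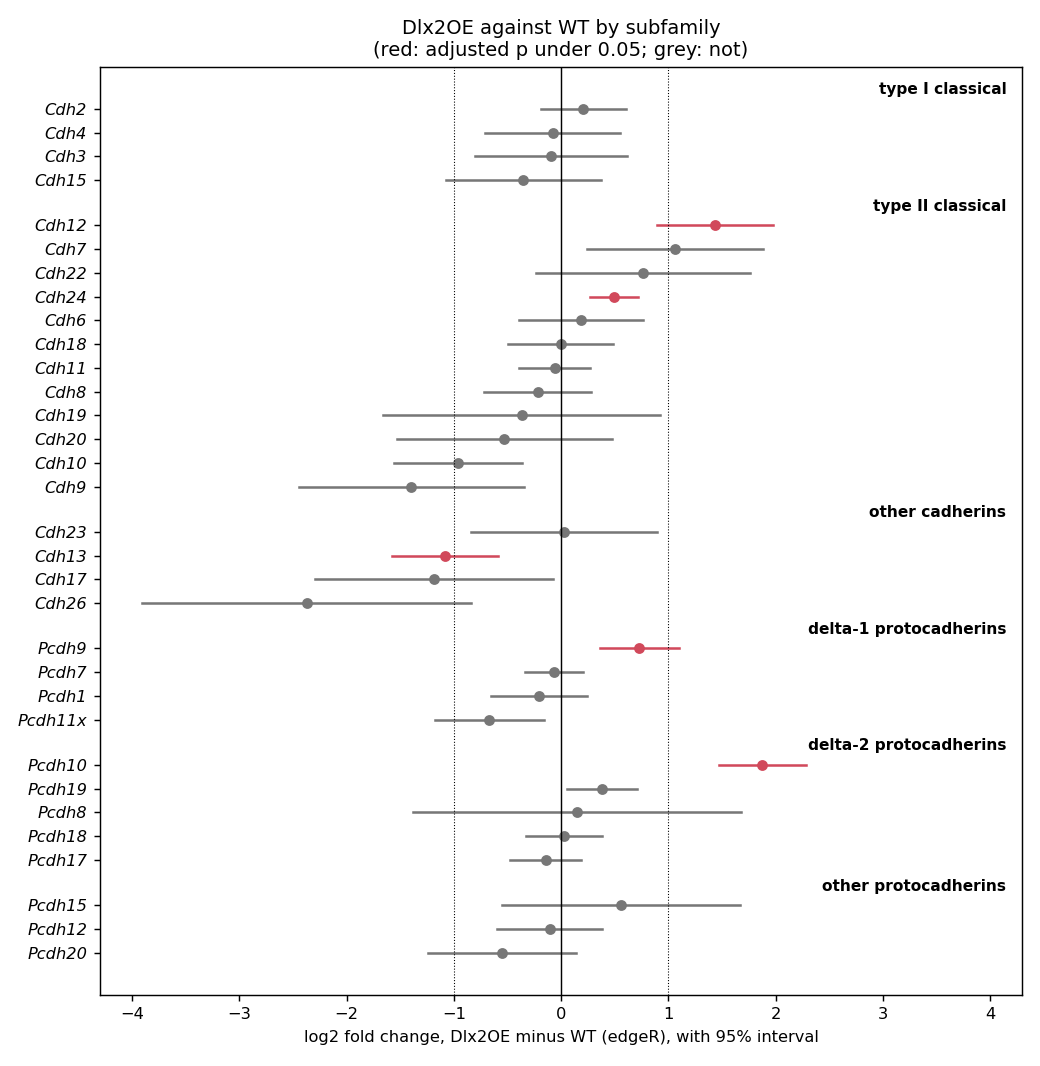
The plot gives the log2 fold change of Dlx2OE over WT for the 32 tested members by family, with the 95% interval of edgeR's fit (not adjusted for the number of genes). Pcdh10 lies farthest to the right at 1.88, Cdh26 farthest to the left at -2.37 with an interval from -3.90 to -0.84, and the intervals of most members cross 0.

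Among the delta-2 protocadherins, Pcdh10 had the smallest p of all members. Pcdh10 (ENSMUSG00000049100), also called OL-protocadherin, acts in axon growth and binds the WAVE complex. It lies on chromosome 3 from 45378398 to 45435623, forward strand, in GRCm38. Its counts were 875, 999 and 1130 (WT) and 2792, 3753 and 4086 (Dlx2OE), or 29.9, 33.1 and 36.2 CPM against 94.2, 120 and 151 CPM. Every Dlx2OE sample was well above every WT sample. The mean rose from 33.1 ± 3.17 to 122 ± 28.4 CPM (SD, n = 3 each), 3.67-fold, with a log2 fold change of 1.88 ± 0.18 (SE) and an adjusted p of 0.00489 in edgeR's quasi-likelihood test. Per kb of exon it moved from rank 17 among the members in WT, at 2.08 ± 0.20, to rank 7 in Dlx2OE, at 7.65 ± 1.79. The call held without any single sample (log2 fold changes of 1.69 to 2.02, largest adjusted p 0.0342), including Dlx2OE sample 3 (1.69, adjusted p 0.00738).

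Pcdh18, the most abundant delta-2 member, did not pass the test. It had 403, 278 and 297 CPM in WT and 339, 347 and 311 CPM in Dlx2OE, with the Dlx2OE values inside the WT range and a log2 fold change of 0.03 (95% interval -0.33 to 0.38, adjusted p 0.921 by edgeR). Pcdh18 and Pcdh10 are the only members on chromosome 3, with 4.308 Mb between them, and are called neighbours in that sense. The X-linked Pcdh19, which can pair with Cdh2 on the membrane, had 37.1, 34.7 and 48.6 CPM in WT and 56.0, 48.7 and 52.2 in Dlx2OE. The nearest samples of the 2 genotypes were at 48.6 and 48.7 CPM, and its log2 fold change was 0.38 (0.06 to 0.71, adjusted p 0.124). WT sample 2, the sample low in Xist, had its lowest value, and without WT sample 3 its adjusted p was 0.0294. Pcdh17 (-0.14) and Pcdh8 (0.15, with an interval from -1.38 to 1.67) overlapped between the genotypes.

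The promoter sequences of Pcdh10, its neighbour Pcdh18 and Pcdh9 are shown, since Pcdh10 and Pcdh9 were the protocadherins higher in Dlx2OE and Pcdh18 was the most abundant protocadherin and did not pass. Each is the 200 bases that end 10 bases before the RefSeq start (GRCm38.p6), 5′ to 3′ on the gene's strand, with each CpG in capitals. Pcdh10 is chr3:45378188-45378387 on the forward strand, Pcdh18 is chr3:49757327-49757526 on the reverse strand and Pcdh9 is chr14:93890690-93890889 on the reverse strand.
Pcdh10: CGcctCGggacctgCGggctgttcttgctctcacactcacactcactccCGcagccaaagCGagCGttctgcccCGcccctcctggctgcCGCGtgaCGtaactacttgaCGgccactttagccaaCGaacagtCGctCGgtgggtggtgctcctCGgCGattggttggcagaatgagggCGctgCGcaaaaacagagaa
Pcdh18: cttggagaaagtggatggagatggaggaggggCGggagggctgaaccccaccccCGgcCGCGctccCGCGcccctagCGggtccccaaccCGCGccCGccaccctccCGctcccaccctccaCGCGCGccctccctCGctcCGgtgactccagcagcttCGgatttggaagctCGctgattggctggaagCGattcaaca
Pcdh9: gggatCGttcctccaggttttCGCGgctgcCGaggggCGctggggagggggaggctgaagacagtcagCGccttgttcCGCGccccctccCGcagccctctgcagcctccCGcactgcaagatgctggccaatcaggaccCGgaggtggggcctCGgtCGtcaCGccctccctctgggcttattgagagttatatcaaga
The stretches hold 18, 19 and 14 CpGs in that order, so a CpG-rich promoter was common to the member with the largest significant rise and to its neighbour that did not pass.

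RefSeq promoter windows (250 bases before to 50 after the start) were matched for 22 of the 33 members, and they held a median of 13 CpGs against 7 over all 32851 windows, with a GC content of 59.8% against 52.7%. A search for 3 motifs was made on both strands. The homeodomain core TAATTA, the kind of site that Dlx proteins bind, was in 0 of the 22 windows and in 5.29% of all windows. The Tcf/Lef core CTTTGA was in 1, that of Pcdh7, against 16.0% of all windows. The E-box CAGGTG was in 3, those of Cdh7, Pcdh15 and Pcdh7, against 20.2%. The windows of Pcdh15, Cdh12 and Cdh18 lay inside the gene, 722525, 662187 and 487441 bases from its GENCODE start. No window was matched for Cdh13. These counts describe letters in short windows and not binding.

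Among the delta-1 protocadherins, Pcdh9 (ENSMUSG00000055421, chromosome 14, 93013410 to 93890679, reverse strand), a neural adhesion gene, was higher in Dlx2OE. Its counts were 536, 383 and 487 (WT) and 715, 784 and 762 (Dlx2OE), or 18.3, 12.7 and 15.6 against 24.1, 25.0 and 28.1 CPM. The 3 Dlx2OE samples were close together and above all WT samples, 1.66-fold on average (log2 fold change 0.73 ± 0.16 SE, adjusted p 0.0400 by edgeR). This call was kept without Dlx2OE sample 1 (adjusted p 0.0357) but not without any other single sample (0.0575 to 0.142) nor with a replicate block (0.0577), while the log2 fold change stayed between 0.59 and 0.85. The X-linked Pcdh11x went the other way, with 11.4, 8.49 and 9.11 CPM in WT and 5.03, 5.64 and 7.57 in Dlx2OE, without overlap, and the sample low in Xist had the lowest WT value. Its log2 fold change of -0.67 (-1.18 to -0.16) did not pass (adjusted p 0.0962 by edgeR). Pcdh7 was at 61.4 ± 7.42 and 58.6 ± 5.01 CPM (log2 fold change -0.07, -0.34 to 0.20). In the annotation, 21.1% of its exon sequence overlaps another gene, and reads there cannot be assigned by strand with this kit. The overlap is 9.61% in Pcdh8, 6.33% in Cdh9, 3.14% in Cdh12 and 0.969% in Pcdh10. In Cdh12 the overlapping gene lies on the same strand, so strand would not tell those reads apart. Pcdh1, known from airway epithelium, was at 41.5 ± 6.95 and 36.1 ± 9.16 CPM, with a log2 fold change of -0.20 (-0.65 to 0.24).

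Among the 12 type II cadherins, 2 passed the test and both were higher in Dlx2OE, against 2.99% of all genes tested. Cdh12 (ENSMUSG00000040452), best known from brain, lies on chromosome 15 from 20449265 to 21589533, forward strand. Its counts were 35, 47 and 46 (WT) and 107, 112 and 116 (Dlx2OE), or 1.2, 1.56 and 1.48 against 3.61, 3.57 and 4.28 CPM. The samples of each genotype were close together, and the lowest Dlx2OE value was more than the highest WT value. Cdh12 rose 2.7-fold (log2 fold change 1.43 ± 0.24 SE, adjusted p 0.0192 by edgeR) and remained a low-level gene, at 0.606 ± 0.0637 CPM per kb in Dlx2OE. It did not pass without WT sample 1 or 2 or without Dlx2OE sample 2 or 3 (adjusted p 0.0615 to 0.0836), with log2 fold changes of 1.32 to 1.5 over all 6 omissions.

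Cdh24 (ENSMUSG00000059674, chromosome 14, 54631231 to 54641364, reverse strand) was the abundant type II cadherin that rose. Its counts were 1074, 1139 and 1228 (WT) and 1538, 1819 and 1372 (Dlx2OE), or 36.7, 37.8 and 39.4 against 51.9, 57.9 and 50.7 CPM. The WT values were tight and all below the Dlx2OE values, and the difference was 1.41-fold (log2 fold change 0.50 ± 0.10 SE, adjusted p 0.0298 by edgeR). Its level per kb went from 10.9 ± 0.387 to 15.3 ± 1.11, next to Cdh3. The call was lost without WT sample 1 or 2 or without Dlx2OE sample 2 or 3 (adjusted p 0.0710 to 0.129), and it was also lost when gene length and GC content were corrected for (0.43, adjusted p 0.12) and with a replicate block (0.0522).

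Cdh11, the mesenchymal cadherin, and Cdh6, also known from kidney and neural crest, were abundant and did not pass. Cdh11 had 740, 590 and 588 CPM in WT and 597, 674 and 567 in Dlx2OE. The groups overlapped, and the log2 fold change was -0.06 with a 95% interval of -0.39 to 0.27, which does not reach 1 in either direction. Cdh6 had 93.9, 48.0 and 76.0 CPM in WT and 62.5, 92.4 and 93.0 in Dlx2OE, a log2 fold change of 0.19 (-0.39 to 0.76). WT sample 2 was the lowest of the 6 for Cdh6.

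Another 3 type II cadherins were separated between the genotypes without passing edgeR's test. With Cdh12 and Cdh24, 3 of the 12 lay above and 2 below WT without overlap, against 16.7% and 17.3% of all genes. Cdh10 had 27.0, 16.8 and 19.1 CPM in WT and 7.39, 12.2 and 12.7 in Dlx2OE (log2 fold change -0.96, -1.55 to -0.37, adjusted p 0.0615). Cdh9 had 4.17, 2.22 and 2.69 against 0.506, 1.18 and 1.77 CPM (-1.39, -2.45 to -0.34, adjusted p 0.0957). Cdh7, a cadherin of migrating neural crest, had 1.30, 2.82 and 2.02 against 5.64, 2.96 and 4.21 CPM (1.06, 0.24 to 1.88, adjusted p 0.102). All 3 of these, with Cdh26 and Pcdh11x, passed in the Wald test of DESeq2 (adjusted p 0.0022 for Cdh10, 0.0242 for Cdh9, 0.0401 for Cdh7, 0.0158 for Cdh26 and 0.0372 for Pcdh11x). That test gave 5 higher members of 32, against 5.54% of the 19047 genes it adjusted over, and 5 lower, against 7.21%. The other type II members overlapped between the genotypes. Cdh8, Cdh18 and Cdh20 had log2 fold changes of -0.22, 0.00 and -0.53, Cdh22 had 0.77, and Cdh19, a cadherin of Schwann cell precursors, had -0.37 with a wide interval from -1.66 to 0.92.

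**Figure D3:**
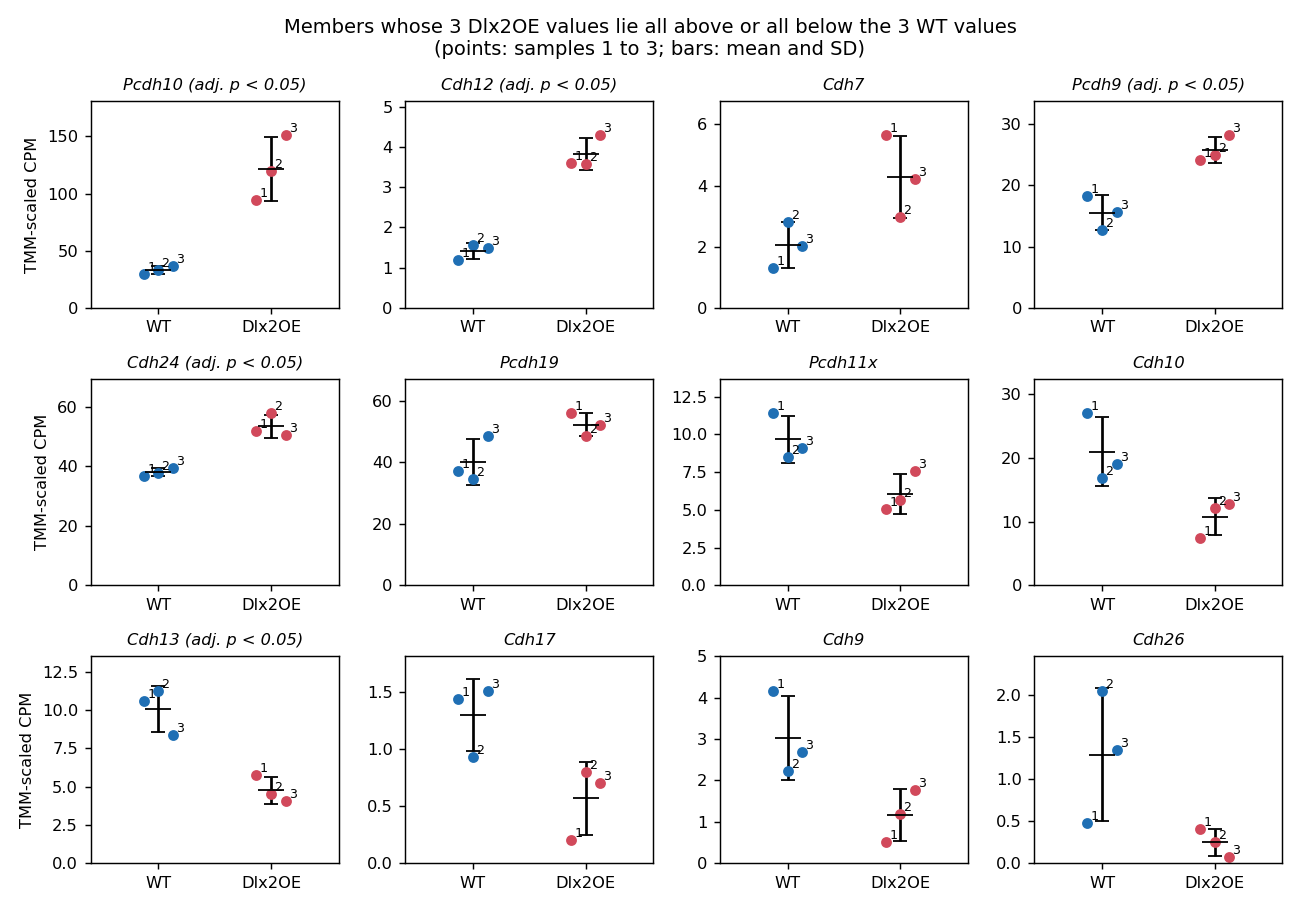
Each panel gives the TMM-scaled CPM of 1 of the 12 members whose genotypes did not overlap, with 1 point per sample and the mean and SD of 3 samples, on an axis from 0. Pcdh10 runs from 29.9 to 36.2 in WT and from 94.2 to 151 in Dlx2OE, whereas for Pcdh19 and Cdh7 the nearest samples of the 2 genotypes almost touch.

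None of the 4 type I cadherins passed the test, and all overlapped between the genotypes. Cdh2 had 137, 111 and 163 CPM in WT and 130, 173 and 172 in Dlx2OE (log2 fold change 0.21, -0.18 to 0.60, adjusted p 0.435 by edgeR). Cdh3 had 58.7, 81.1 and 74.1 CPM in WT and 105, 44.8 and 50.1 in Dlx2OE, so that Dlx2OE samples held both the highest and the lowest values. Its log2 fold change was -0.10 (-0.81 to 0.61), and without Dlx2OE sample 1 it was -0.60 (adjusted p 0.0484). Cdh4 (R-cadherin) had a log2 fold change of -0.08 and Cdh15 (M-cadherin), the cadherin of muscle precursors, -0.35 (-1.07 to 0.37).

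Among the cadherins outside the classical families, Cdh13 was lower in Dlx2OE. Cdh13 (ENSMUSG00000031841, chromosome 8, 118283733 to 119324921, forward strand), or T-cadherin, is anchored in the membrane by a lipid, has no part inside the cell to bind catenins, and is found on vessels and neurons. Its counts were 310, 340 and 261 (WT) and 170, 141 and 109 (Dlx2OE), or 10.6, 11.3 and 8.37 against 5.74, 4.49 and 4.02 CPM. The genotypes were separated, and the mean fell from 10.1 ± 1.52 to 4.75 ± 0.886 CPM, 2.12-fold (log2 fold change -1.08 ± 0.21 SE, adjusted p 0.0313 by edgeR). It did not pass without WT sample 1 or 2 or without Dlx2OE sample 2 or 3 (adjusted p 0.0902 to 0.133), with log2 fold changes of -1.25 to -0.98 over all 6 omissions. Cdh26, whose counts were 14, 62 and 42 in WT against 12, 8 and 2, did not pass (log2 fold change -2.37, adjusted p 0.0687), although it did without Dlx2OE sample 1 (-2.92, adjusted p 0.0465). The Dlx2OE samples left in that fit (8 and 2 counts) lay under the filter's minimum of 0.328 CPM. Cdh26 was therefore kept there through its WT samples. Cdh17, the liver-intestine cadherin, had 42, 28 and 47 against 6, 25 and 19 counts (-1.18, adjusted p 0.150). Cdh23 overlapped between the genotypes (0.03, -0.84 to 0.89).

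The remaining protocadherins, Pcdh12, Pcdh15 and Pcdh20, all overlapped between the genotypes. Pcdh20 had the smallest p of the 3, with 4.44, 5.71 and 6.45 CPM in WT and 5.10, 2.48 and 3.77 in Dlx2OE (log2 fold change -0.55, -1.24 to 0.14, adjusted p 0.253 by edgeR). Pcdh12, an endothelial protocadherin, had -0.11 (-0.60 to 0.39). Pcdh15, the partner of Cdh23 in the tip link, had 0.56 (-0.55 to 1.67), with 10.3 CPM in Dlx2OE sample 3 and 2.39 to 5.29 CPM in the other 5 samples.

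Several type II cadherin genes lie on the same chromosome, and their log2 fold changes agreed in sign for some neighbours and not for others. Neighbours are here the nearest members along a chromosome, and other genes between them were not looked for. On chromosome 15 the order is Cdh6, Cdh9, Cdh10, Cdh12 and Cdh18, with gaps of 3.555, 1.962, 1.435 and 0.959 Mb. Their log2 fold changes in that order were 0.19, -1.39, -0.96, 1.43 and 0.00, so that Cdh9 and Cdh10 were both negative, and Cdh10 and Cdh12, next to each other, had intervals on opposite sides of 0 (-1.55 to -0.37 and 0.89 to 1.98). On chromosome 8 the neighbours Cdh8 and Cdh11 were at -0.22 and -0.06, and both intervals cross 0. On chromosome 1, Cdh7 at 1.06 lies 0.748 Mb from Cdh19 at -0.37 and 4.987 Mb from Cdh20 at -0.53, and the intervals of Cdh19 and Cdh20 cross 0. On chromosome 14, Cdh24 and Pcdh9, at 0.50 and 0.73, are separated by Pcdh8, Pcdh17 and Pcdh20, at 0.15, -0.14 and -0.55.

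**Figure D4:**
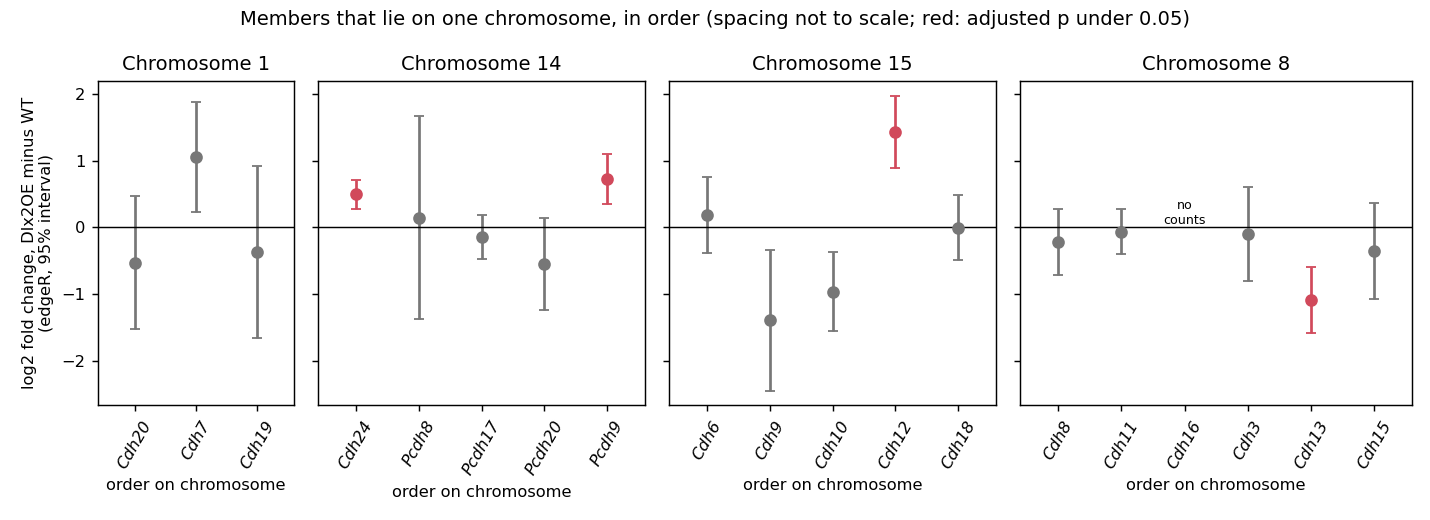
Each panel gives the log2 fold change of Dlx2OE over WT with its 95% interval for members on the same chromosome, in order along it and with spacing not to scale. On chromosome 15 the values run from 0.19 for Cdh6 down to -1.39 for Cdh9 and up to 1.43 for Cdh12.

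Some members are known from cell types other than the crest mesenchyme, so marker lists of those cells were read beside them. Markers of maxillary mesenchyme were abundant in every sample, at a summed 1840 to 2218 CPM in WT and 2554 to 2697 CPM in Dlx2OE, with 2 of 9 higher at an adjusted p under 0.05 (Twist1, 0.65, and Alx4, 1.39). The summed epithelial list ran from 748 to 1327 CPM in WT and from 571 to 1764 in Dlx2OE, and 2 of its 10 genes, the keratins Krt8 and Krt18, were lower. Without Dlx2OE sample 1, 6 of the 10 were lower, against 5.33% of all genes. Cdh3 and the epithelial list both had their highest value in Dlx2OE sample 1. The endothelial sum was 307 to 456 CPM in WT and 218 to 345 in Dlx2OE. Emcn was lower (-0.97) and all 8 genes were negative (median -0.40). DESeq2 gave 3 of the 8 lower, against 7.21% of the genes it adjusted over. The sum had its highest value in WT sample 1 and its lowest in Dlx2OE sample 1, as Pcdh12 did. Cdh13 is also found on vessels, and the part of vessels in its fall was not tested. The muscle sum was lowest in Dlx2OE sample 1 and highest in WT sample 2, as Cdh15 was, with none of its 8 genes passing. The Schwann sum was lowest in Dlx2OE sample 1, 93.5 CPM against 144 to 317 in the others, as Cdh19 was (2.80 against 6.77 to 18.8 CPM). The highest values did not coincide, since Cdh19 was highest in WT sample 1, where the Schwann sum was 144 CPM, and the sum was highest in Dlx2OE sample 3, where Cdh19 was 12.8 CPM. None of its 6 tested genes passed, and its marker Foxd3 had 0 counts in all 6 samples.

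Pcdh10, Pcdh9 and Cdh12 are expressed in neurons, and neuronal markers varied widely between samples. The 10 neuronal genes summed to 65.3, 319 and 175 CPM in WT and 192, 482 and 992 CPM in Dlx2OE, with a median log2 fold change of 1.37, 10 of 10 positive and 0 of 10 passing the test. Without Dlx2OE sample 1, 4 of the 10 were higher, and 2 were with no filter on low counts, 2 with a replicate block and 1 with DESeq2. Over all genes, the shares higher in these fits were 5.36%, 2.58%, 2.32% and 5.54% in that order. Within Dlx2OE, Pcdh10 (94.2, 120 and 151 CPM) and Pcdh9 (24.1, 25.0 and 28.1 CPM) had the same sample order as the neuronal sum. Within WT neither did. The sum was highest in WT sample 2, where Pcdh9 was lowest (12.7 CPM). Pcdh10 was highest in WT sample 3 (36.2 CPM). Cdh12 had the order of the sum in WT (1.2, 1.56 and 1.48 CPM) and not in Dlx2OE (3.61, 3.57 and 4.28 CPM). WT sample 2 and Dlx2OE sample 1 were set side by side after their values were seen. WT sample 2 had the larger neuronal sum, 319 against 192 CPM. Stmn2 alone of the list was lower in that WT sample, 56.0 against 73.3 CPM, and its Dlx2OE values all lay above its WT values. In every other pairing of a WT with a Dlx2OE sample, the Dlx2OE sample had the larger neuronal sum. Between WT sample 2 and Dlx2OE sample 1, Pcdh10 was 33.1 against 94.2 CPM, Pcdh9 12.7 against 24.1 and Cdh12 1.56 against 3.61. The part of neurons in these differences was not tested. In the other lists, 2 of 6 macrophage genes were lower (C1qa and C1qb, sums of 75.9 to 81.4 against 51.0 to 56.6 CPM), and among 8 genes of brain neuroepithelium Sox2 was lower (-1.67) and Emx2 higher (1.61), with sums of 87.7 to 175 against 53.6 to 96.7 CPM. Of the marker genes that passed, Krt8 and Sox2 did so whichever sample was left out, and the others each failed in at least 1 omission, with adjusted p of up to 0.157. Cdh1 and Cdh5, the cadherins left out by the rule, did not pass (-0.46, adjusted p 0.412, and -0.31, adjusted p 0.293 by edgeR).

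**Figure D5:**
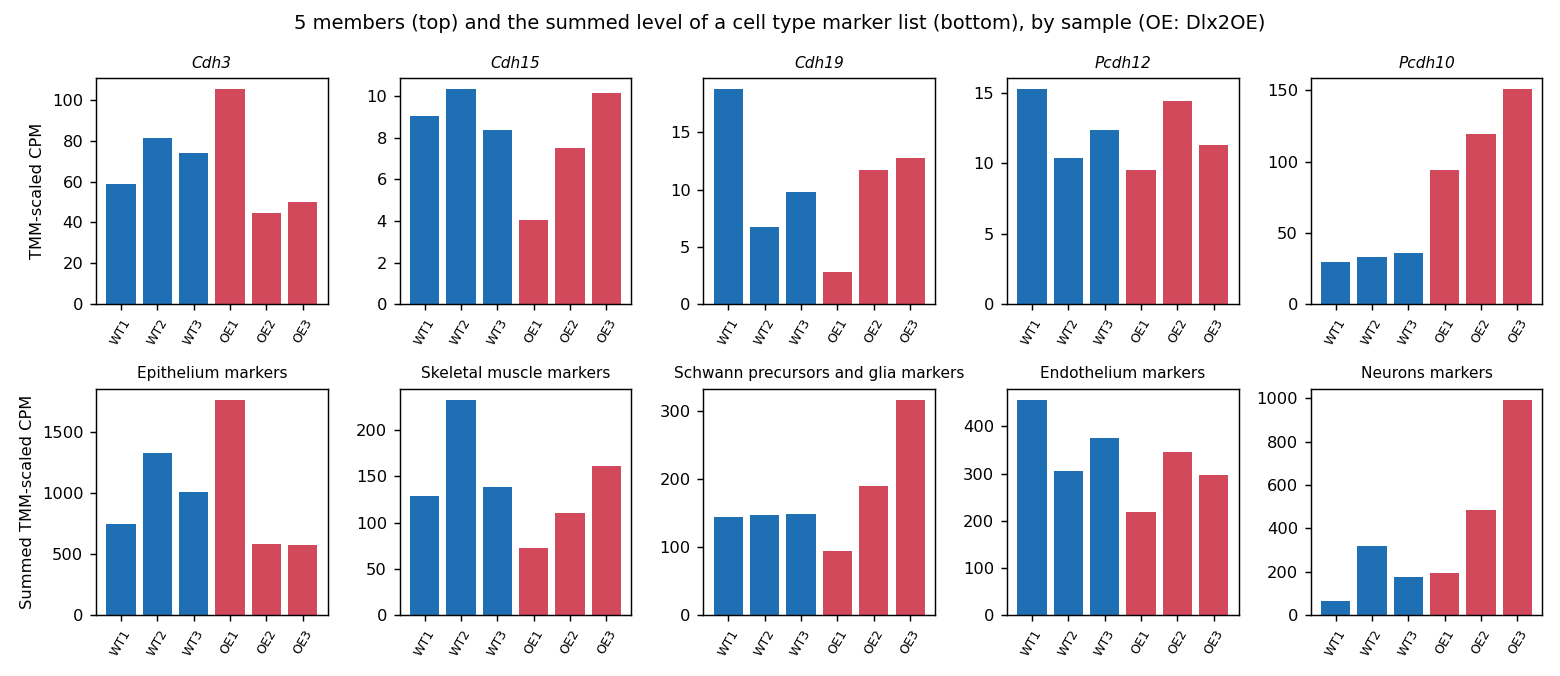
The bars give, for each of the 6 samples, the TMM-scaled CPM of 5 members (top) and the summed CPM of the marker list of a cell type that expresses each of them (bottom), on axes from 0. Cdh3 and the epithelial list are highest in Dlx2OE sample 1. Pcdh10 and the neuronal list are both lowest in sample 1 and highest in sample 3 among the Dlx2OE samples. Among the WT samples, Pcdh10 is highest in sample 3 and the neuronal list in sample 2. The neuronal list overlaps between the genotypes (65.3 to 319 against 192 to 992 CPM).

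The partners through which cadherins act mostly did not pass the test. Over all genes tested, 2.99% were higher and 3.46% lower. Of 12 tested catenins and linkers, 1 was higher and 0 lower, with a median log2 fold change of 0.01. The exception was Ctnna2, the alpha-catenin of neurons, which went from 14.8 ± 1.79 to 42.5 ± 15 CPM (log2 fold change 1.52, adjusted p 0.0202 by edgeR). Beta-catenin (Ctnnb1), at 0.00, and the alpha-catenin of most tissues (Ctnna1), at -0.08, did not pass. Of 9 genes of the WAVE complex, the effector of delta-2 protocadherins such as Pcdh10, 1 was lower, the small subunit Brk1 (-0.51, adjusted p 0.0396), and 7 of the 9 log2 fold changes were positive. Of 7 genes for cadherin processing, the proprotein convertase Pcsk6 was lower (-1.07, adjusted p 0.0305).

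Transcription factors known to repress cadherin genes, Cdh1 above all, formed a list of 6. All 6 log2 fold changes were positive, as were 8807 of the 17514 genes tested in all. Snai1 (0.05), Zeb1 (0.03) and Snai2 (0.30) overlapped between the genotypes and did not pass. The other 3 genes were higher at an adjusted p under 0.05, against 2.99% of all genes tested. They were Twist2 (1.69, adjusted p 0.0152 by edgeR), Zeb2 (0.68, adjusted p 0.0257) and Twist1 (0.65, adjusted p 0.0402). Twist1 is also one of the mesenchyme markers given above. None of the 4 nectins, adhesion proteins that share junctions with cadherins, passed. Of the partners that passed, each was lost when some single samples were left out, Twist2 in 2 of 6 omissions, Ctnna2 in 3, Zeb2, Brk1 and Pcsk6 in 4 and Twist1 in 5, with adjusted p of up to 0.156.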

How the data were processed

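RNA was sequenced in 3 WT and 3 Dlx2OE samples, grouped by the sample labels. The authors removed adaptors and low-quality reads, checked quality with FastQC, mapped them to mm10 with STAR 2.7.3a and counted them per gene with htseq-count 0.12.4 in union mode, and the deposited values are raw counts. The annotation release and strand setting are not given in the sources used here. Gene positions and symbols came from GENCODE M21, which holds 53706 of the 53801 gene rows. The 5 summary lines of unassigned reads, 16.8% to 25.3% of each library, stayed out of the tests.

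Genes were filtered with filterByExpr (minimum count 10), scaled by TMM and tested with edgeR 4.0.16 in R 4.3.3 (quasi-likelihood test on genotype, Benjamini-Hochberg adjustment over 17514 genes). Genes past 0.05 (adjusted p) whose log2 fold change also exceeded 1 in size were called upregulated or downregulated. The alternatives were DESeq2 1.42.0, RLE factors, library size alone, no filter, 10 counts in every sample, a length and GC correction, a replicate block, both together, removal of 49 mitochondrial and haemoglobin genes, and omission of each sample. The steps were tested on simulated data.

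The members and the lists were chosen with earlier results of these data known. Named in full are members with an adjusted p under 0.05, the 8 highest in WT, and the smallest p of a family with neither. Other members are accounted for, and those given with sample values beyond this rule were chosen after their values were seen. List genes named have an adjusted p under 0.05, at most 4 per list, and other list genes were chosen after their values were seen. No paired design was used.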

Additional observations from a re-analysis of the deposited data

How the results depend on the processing

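Pcdh10 passed under all 15 alternatives (log2 fold change 1.56 to 2.02), and Pcdh10, Cdh12, Pcdh9, Cdh24 and Cdh13 kept their sign in each. RLE factors, library size alone, 10 counts in every sample and removal of mitochondrial and haemoglobin genes gave the same 5 calls. DESeq2 gave 5 higher members, 3 upregulated, 5 lower and 3 downregulated (5.54%, 2.35%, 7.21% and 2.31% of the 19047 genes it adjusted over). No filter gave 4, 2, 4 and 3 (2.58%, 1.51%, 3.51% and 1.48% of 33556 genes), and the length and GC correction 3, 2, 4 and 2 (1.83%, 1.39%, 2.48% and 1.26% of 17514 genes), with a median log2 fold change of -0.23. Under DESeq2, Cdh10, Cdh26, Cdh7, Cdh9 and Pcdh11x were added, with no filter Cdh10, Cdh26 and Cdh9, and under the correction Cdh10, Pcdh1 and Pcdh11x, while Cdh24 was lost. Of the 15 alternatives, Pcdh9 and Cdh24 were each lost in 7, Cdh12 in 5 and Cdh13 in 4. The cause was not tested. The members tested have longer exon sequence than all genes tested (median 7020 against 3994 bases) and lower GC content (46.1% against 49.9%).

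Omitting each sample gave 1 to 4 higher and 0 to 3 lower members, 1 to 2 upregulated and 0 to 2 downregulated. The medians were -0.14 to -0.01. Over all genes, 0.216% to 5.36% were higher and 0.222% to 7.14% lower, with 0.216% to 3.53% upregulated and 0.194% to 2.92% downregulated. Without WT sample 1 or 2, or Dlx2OE sample 2 or 3, only Pcdh10 passed. In these omissions 79 to 315 genes passed in all, against 1130 with every sample. Without WT sample 3, Pcdh9 was lost and Pcdh19 passed, and without Dlx2OE sample 1, Cdh26 and Cdh3 were added. Cdh26 was kept in that last fit through its WT samples.

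The shared replicate numbers were not taken as pairs. The deviations of same-numbered samples correlated at -0.07, -0.21 and 0.07, and those of differently numbered samples at -0.20 to 0.34. With 3 samples per group, each centred on its group mean, these correlations cannot show whether the samples are paired. With the replicate block, 2 members were higher (2.32% of all genes were) and 1 lower (3.16%), Pcdh9 and Cdh24 being lost. With the block and the length and GC correction together, 1 was higher and 1 upregulated (1.26% and 0.982% of all genes). In that fit 1 was also lower and 1 downregulated (2.47% and 0.874%). Pcdh10 and Cdh13 were kept, and Cdh12, Cdh24 and Pcdh9 were lost. The median was then -0.24.

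Over all genes, 1130 passed in the reported test, 2428 with DESeq2, 2044 with no filter, 756 with the correction, 652 with correction and block, and 79 to 2091 when a sample was omitted. The effect of depth on low-count members such as Cdh26 and Cdh17 was not tested.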
